A study of Homo sapiens with 8 samples.

Results

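The MIR106B-MIR25 cluster and the MIR106A-MIR363 cluster are the paralogs of the miR-17-92 cluster. In small RNA sequencing counts, 7 of their hairpin features were followed by name: MIR106B, MIR93 and MIR25 on chromosome 7, and MIR106A, MIR20B, MIR92A2 and MIR363 on chromosome X. All 7 had a row among the 2709 non-coding RNA features, 1328 of them miRNA features, and all 7 passed the filter on low counts in the comparison below. MIR17HG, the host transcript of the founding cluster, was read beside them.

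The libraries came from MEC-1, a B-cell line established from a chronic lymphocytic leukaemia, and were of 2 kinds: 3 of the cells and 5 of exosomes, small membrane vesicles released into the medium. No treatment or genotype set the groups apart, and every library came from the same line, so the comparison describes a single model. Per the labels' protocols, culture was in bioreactors, ultracentrifugation at 100000 g with a 20% iodixanol cushion gave the vesicles, and 30 ng of RNA under 200 nt was amplified for 15 cycles. Exosomes of the calf serum had been removed beforehand from all medium but that of the upper compartment. Whether the libraries of a group came from separate cultures is not stated in the sources used, and the p-values therefore cover the spread between these libraries alone, which may be technical.

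A miRNA is cut from a hairpin in a longer transcript, and its mature strand guides silencing of mRNAs that pair with its seed, bases 2 to 8. The miR-17-92 cluster is a MYC target known for promoting the growth and survival of B cells, in part by lowering BIM, and its paralogs arose by duplication. Members of these clusters fall into seed families, of which the miR-17 and miR-92 families are held by the members described here.

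The 7 members matched mature entries in the RefSeq table (GRCh38.p14). The sequences below are shown because the members fall into 2 groups by seed that cut across the clusters, and because some members are close to identical to a miRNA of another cluster. Capitals mark the seed. The first group shares AAAGUGC, and miR-17-5p of the founding cluster is printed last for comparison.
miR-106b-5p: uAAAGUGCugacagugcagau
miR-93-5p: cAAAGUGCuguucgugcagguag
miR-106a-5p: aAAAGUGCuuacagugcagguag
miR-20b-5p: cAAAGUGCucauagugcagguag
miR-17-5p: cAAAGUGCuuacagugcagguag

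The second group shares AUUGCAC, and the last 2 of these come from genes outside both clusters, MIR92B and MIR32.
miR-25-3p: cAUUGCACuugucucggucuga
miR-92a-3p: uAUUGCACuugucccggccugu
miR-363-3p: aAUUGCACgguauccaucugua
miR-92b-3p: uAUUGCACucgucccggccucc
miR-32-5p: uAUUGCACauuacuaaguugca

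Of the 2370 human mature sequences in the table, 8 carried the first seed and 6 the second. Counting positions from 1 at the 5′ end, miR-106a-5p differed from miR-17-5p by A1C alone. Between miR-25-3p and miR-92a-3p the differences were C1U, U14C, U18C and A22U. miR-92a-3p is made from 2 hairpins, MIR92A1 of the founding cluster and MIR92A2 on chromosome X, which are printed with the mature strand in capitals because the rest of the hairpin is what tells them apart.
MIR92A1: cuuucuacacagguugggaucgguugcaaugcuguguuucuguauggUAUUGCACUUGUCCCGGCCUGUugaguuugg
MIR92A2: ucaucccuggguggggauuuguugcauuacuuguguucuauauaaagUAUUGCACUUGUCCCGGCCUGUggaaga

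The mature strand was the same in both, from base 48 to base 69, so a read of miR-92a-3p alone cannot be assigned to either hairpin. The sources used here do not give how reads with several matches were counted. The counts are per hairpin feature and do not separate its arms. The letters GGAG, searched on the mature strand, occurred in 1 of the members' 13 mature strands, miR-25-5p, against 15.7% of all 2370.

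In the coordinates of the deposited tables (GRCh37), the chromosome 7 members lay on the minus strand within 515 nt, from 99691183 to 99691697. The chromosome X members lay on the minus strand within 901 nt, from 133303408 to 133304308. In the GENCODE 29 annotation (GRCh38), the chromosome 7 hairpins were intronic in all 8 spanning transcripts of MCM7, a replication helicase gene on the same strand. The chromosome X hairpins were exonic in the single spanning transcript of AC002407.1. The deposited MIR17HG feature was counted over 3492 nt in 3 parts. Its part of 2705 nt had the length and spacing of a GENCODE 29 exon that holds all 6 founding hairpins, so MIR17HG counts cannot be given to any single founding miRNA.

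Total counts were 23353820 to 32436286 in exosome libraries and 25675636 to 57323598 in cell libraries. miRNA features took 3.10% to 11.5% of the exosome counts and 6.22% to 12.2% of the cell counts, and MIR21 alone took 10.1% to 31.2% of miRNA reads. Because these shares differed, levels are given on 2 scales: CPM, counts per 1000000 of the library total scaled by the trimmed mean of M-values (TMM), and miRNA RPM, reads per 1000000 miRNA reads. The TMM factors of exosome 5 and cell 2, 0.524 and 0.552, were below those of the other 6 libraries, which began at 0.905. Of the B-cell and blood marker miRNAs listed, 3 of 6 were analysed, MIR21, MIR150 and MIR181A1. Their summed level was 6354 to 18250 CPM in exosomes and 12970 to 27140 CPM in cells, nearly all of it MIR21, at 6054 to 26820 CPM. MIR150 alone was at 5.05 to 55.05 CPM in exosomes and 4.61, 2.40 and 17.98 CPM in cells 1 to 3. MIR181A1 was at 279 to 449 CPM in exosomes and 323, 128 and 409 CPM in cells 1 to 3. MIR155, MIR142 and MIR146A were not analysed here, so these values do not establish the labelled cell type.

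No member differed between exosomes and cells at an adjusted p of 0.05 (edgeR quasi-likelihood test, Benjamini-Hochberg over the 1178 features tested). The 3 chromosome 7 members and MIR106A had positive fold changes, and MIR20B, MIR92A2 and MIR363 had negative ones. MIR106B had the smallest p of the 7, unadjusted p = 0.0496 and adjusted p = 0.0977 by edgeR. It was the only member whose exosome and cell libraries did not overlap in TMM-scaled CPM. Without TMM scaling its libraries overlapped. Other scalings and tools moved its call, as the closing section lists. In the same fit, 43.0% of all features and 20.1% of the 333 miRNA features were called in either direction, against 0 of 7 members. The median log2 fold change, exosome over cell, was 0.56 over the 7 members, 0.01 over the miRNA features tested and -0.09 over all features. When the 363 miRNA features that passed the filter were fitted alone, 13.5% of them and 0 of 7 members were called, with 2 members at an unadjusted p under 0.05 in that edgeR fit, MIR106B and MIR92A2.

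**Figure D1:**
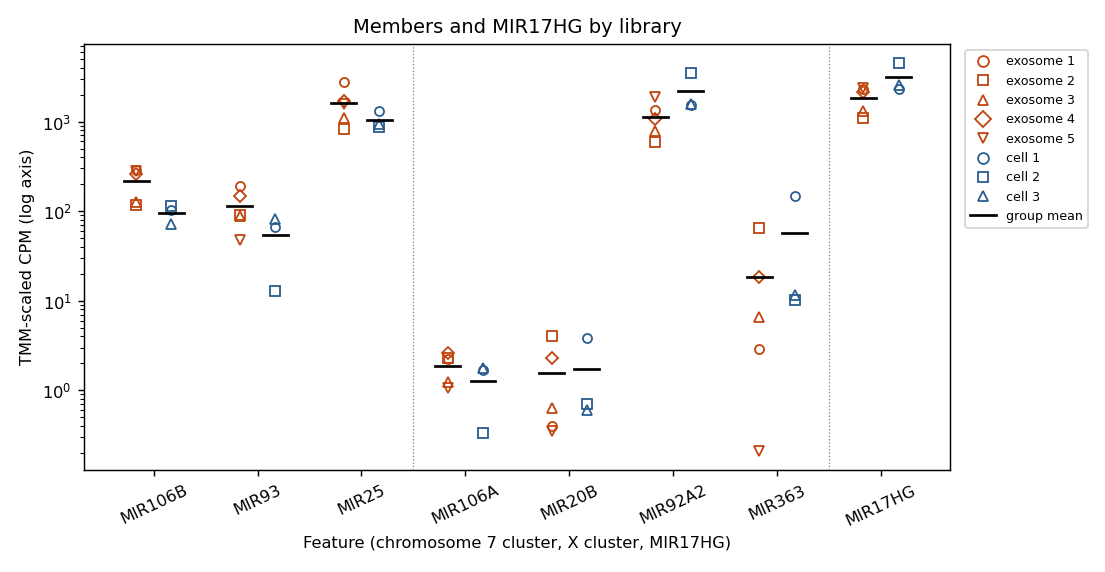
TMM-scaled CPM (log axis) of each member and of MIR17HG in the 5 exosome libraries (red) and 3 cell libraries (blue), with 1 marker per library and a bar at the group mean. MIR106B is the member whose groups do not meet on this TMM-scaled axis, and MIR363 spreads from 0.210 to 64.6 CPM within the exosome libraries alone.

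MIR106B, which gives a miR-17 family miRNA known to lower the cell-cycle inhibitor p21, had 286, 116, 127, 258 and 284 CPM in exosome libraries 1 to 5. Cell libraries 1 to 3 had 104, 114 and 71.7 CPM. Every exosome library lay above every cell library, with exosomes 2 and 3 close to the top of the cell range. The means were 215 ± 85.4 CPM (SD, n = 5) and 96.5 ± 21.97 CPM (SD, n = 3), a ratio of 2.22. The log2 fold change was 1.15 ± 0.54 (SE), with edgeR's adjusted p = 0.0977. Across all features tested, 21.6% had exosome libraries wholly above the cell libraries in CPM, and 1 of the 7 members did.

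On the scale of miRNA reads the MIR106B groups stood further apart. The exosome libraries held 3426, 4072, 3096, 3270 and 2985 MIR106B reads on this scale, miRNA RPM, and the cell libraries 1210, 1009 and 972. The mean was 3.17 times as high in exosomes. Among miRNA features ordered by count, MIR106B ranked 25 to 36 in exosome libraries and 41 to 54 in cell libraries. With miRNA features fitted alone, its log2 fold change was 1.26 ± 0.42 (SE), with edgeR's unadjusted p = 0.0092 and adjusted p = 0.0642.

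MIR25, the miR-92 family member of the chromosome 7 cluster, known to target BIM, had 2784, 823, 1102, 1711 and 1577 CPM in the exosome libraries and 1328, 878 and 930 CPM in the cell libraries. The groups overlapped in CPM, since exosome 2 was below all 3 cell libraries and exosome 3 below cell 1. The log2 fold change was 0.61 ± 0.53 (SE), with edgeR's adjusted p = 0.379, and it ran from 0.32 without exosome 1 to 1.06 without exosome 3. In miRNA RPM, MIR25 took 33310, 28810, 26830, 21680 and 16550 in exosomes and 15470, 7788 and 12600 in cells. On that scale the groups did not overlap, though exosome 5 lay just above cell 1. MIR25 ranked 6 to 8 among miRNA features in exosome libraries and 15 to 16 in cell libraries.

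MIR106B and MIR25 were the 2 of 7 members with exosome libraries wholly above the cell libraries in miRNA RPM, against 19.3% of the 363 miRNA features. That denominator moved with MIR21, which took 10.1% to 23.9% of miRNA reads in exosomes and 11.4% to 31.2% in cells. With MIR21 left out of it, MIR106B stayed apart, at 3320 to 5166 in exosomes and 1139 to 1760 in cells. MIR25 then overlapped, with exosome 5 at 18410 and cell 1 at 22500.

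**Figure D2:**
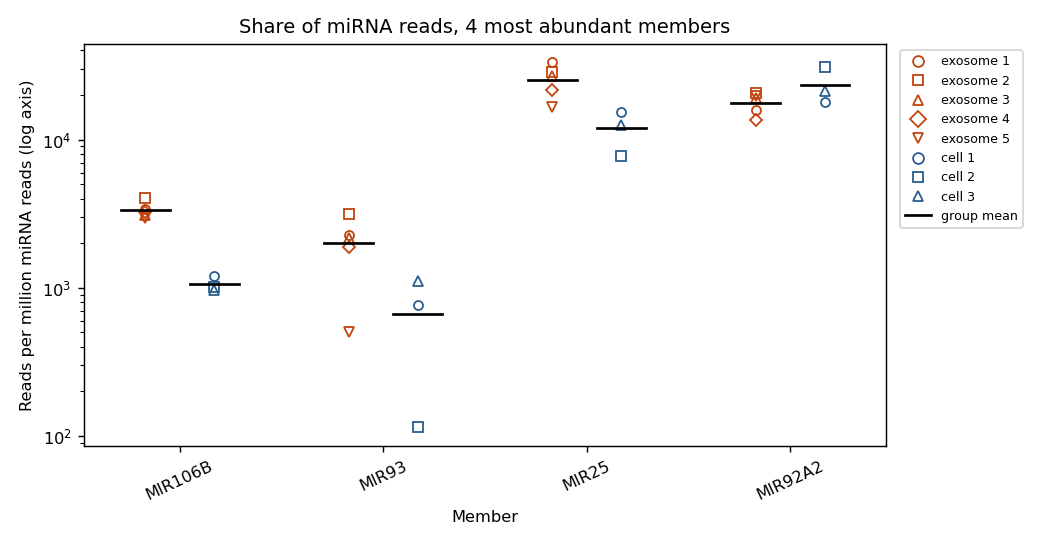
miRNA RPM, reads per 1000000 miRNA reads (log axis), for the 4 most abundant members, with 1 marker per library and a bar at the group mean. MIR106B exosome libraries lie between 2985 and 4072 and the cell libraries between 972 and 1210, MIR25 exosome and cell libraries lie next to each other at 16550 and 15470, and MIR93 and MIR92A2 overlap.

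MIR93, the remaining chromosome 7 member, gives a miR-17 family miRNA that shares targets with miR-106b. Its exosome libraries had 190, 90.4, 88.6, 148 and 48.0 CPM and its cell libraries 66.2, 12.9 and 82.3 CPM. Exosome 5 fell within the cell range and cell 2 stood far below the rest. The log2 fold change was 1.07 ± 0.65 (SE), with edgeR's adjusted p = 0.202. Without cell 2 it was 0.53, with edgeR's adjusted p = 0.537, and without cell 3 it was 1.77, with adjusted p = 0.105.

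Among the chromosome X members, MIR92A2 was by far the highest, with 1332, 593, 783, 1068 and 1881 CPM in exosomes and 1540, 3488 and 1562 CPM in cells. Its miRNA, miR-92a-3p, is among the most abundant in many blood cells, and the counts may include miR-92a-3p reads of MIR92A1. Exosome 5 exceeded cells 1 and 3, so the groups overlapped. The mean was 1.94 times as high in cells, with a log2 fold change of -0.96 ± 0.53 (SE) and edgeR's adjusted p = 0.157. It ran from -1.25 without cell 1 to -0.47 without exosome 3. In miRNA RPM its groups overlapped as well, at 13530 to 20750 in exosomes and 17930 to 30960 in cells, and its rank was 5 to 11 and 5 to 12.

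Among the 1177 other features tested, the one MIR92A2 followed most closely was MIR17HG. The measure of likeness was the root mean square (RMS) difference of log2 CPM over the 8 libraries after each feature was centred on its own mean, and for this pair it was 0.22. For the other 6 members the RMS difference to MIR17HG ran from 0.76 for MIR25 to 2.84 for MIR363. MIR17HG had 2307, 1109, 1326, 2128 and 2365 CPM in exosomes and 2337, 4471 and 2581 CPM in cells. In TMM-scaled CPM it was highest in exosome 5 and cell 2 within their groups, as MIR92A2 was. Without TMM scaling neither feature was highest there. MIR92A2 was then at 985 CPM in exosome 5 against 1609 in exosome 1. In cell 2 it was at 1925 against 2186 in cell 1. MIR17HG had 33830 of 27316077 counts in exosome 5 against 75188 of 26973393 in exosome 1. In cell 2 it had 134391 of 54461350 against 85195 of 25675636 in cell 1. The count of MIR92A2 was 0.502 to 0.795 of that of MIR17HG in exosome libraries and 0.605 to 0.780 in cell libraries. From MIR363, a neighbour within the same 901 nt, MIR92A2 differed by an RMS of 2.97. The fold change of MIR17HG was -0.76 ± 0.49 (SE) on the log2 scale, with edgeR's adjusted p = 0.232. MIR92A1 is among the founding hairpins inside the counted MIR17HG, so a read of miR-92a-3p may have entered both features. The copies MIR199A1 and MIR199A2, for example, each had 15 counts in exosome 1 and 10 in cell 1. Reads that fit both miR-92a hairpins cannot be told apart in these counts, and their part in the likeness was not tested.

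MIR363, which gives the other miR-92 family miRNA on chromosome X, varied more between libraries of a group than any other member. Its counts were 94, 2264, 303, 634 and 3 in exosome libraries and 5415, 305 and 608 in cell libraries. On the CPM scale that was 2.89, 64.6, 6.64, 18.6 and 0.210 in exosomes and 149, 10.2 and 11.7 in cells. Exosome 2 and cell 1 stood high, and the exosome libraries spanned 308-fold. The 3 counts in exosome 5 correspond to 0.110 CPM without TMM scaling, with an exact Clopper-Pearson 95% interval of 0.0227 to 0.321 that covers counting error only. The log2 fold change was -1.61 ± 1.13 (SE), with edgeR's adjusted p = 0.268. It was -2.98 without exosome 2, with edgeR's adjusted p = 0.0326, and 0.73 without cell 1, with adjusted p = 0.670, so these 2 libraries set its call and its sign.

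MIR20B, a miR-17 family member, was near the lower limit of what these depths resolve. Its exosome libraries had 13, 141, 29, 79 and 5 counts, or 0.399, 4.02, 0.635, 2.32 and 0.350 CPM. Its cell libraries had 141, 21 and 31 counts, or 3.87, 0.699 and 0.597 CPM. Exosome 2 and cell 1 were again the highest of their groups, as for MIR363. The log2 fold change was -0.15 ± 0.89 (SE), with edgeR's adjusted p = 0.911, and its sign changed in several of the alternatives.

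MIR106A had 73, 80, 57, 88 and 15 counts in exosomes and 62, 10 and 93 in cells. These were 2.24, 2.28, 1.25, 2.58 and 1.05 CPM against 1.70, 0.333 and 1.79 CPM. The groups overlapped, and exosome 5 and cell 2 were lowest. The log2 fold change was 0.56 ± 0.69 (SE), with edgeR's adjusted p = 0.545. It was 0.02 without cell 2 and 1.15 without cell 3.

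**Figure D3:**
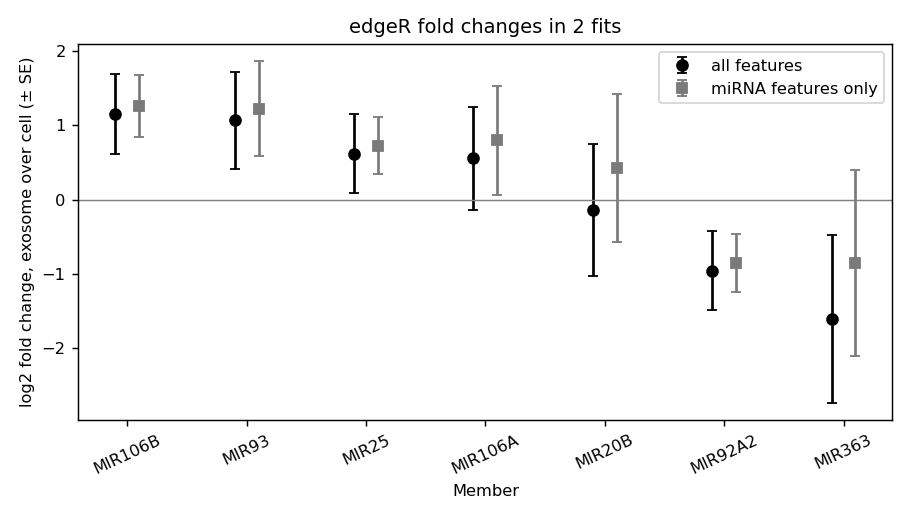
edgeR log2 fold change, exosome over cell, with its SE, for each member in the fit of all features (black circles) and in the fit of miRNA features alone (grey squares). Values run from 1.15 for MIR106B to -1.61 for MIR363 in the first fit, and MIR20B lies at -0.15 in the first and 0.42 in the second.

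Within their groups, exosome 5 and cell 2 were high for some members and low for others in TMM-scaled CPM. MIR92A2 was 2.03 times the median of the other exosome libraries in exosome 5 and 2.25 times the mean of the other cell libraries in cell 2. MIR106B was at 1.48 and 1.30 times these levels, and MIR25, which was on different sides in the 2 libraries, at 1.12 and 0.777. MIR93 was at 0.402 and 0.173 times these levels, and MIR106A at 0.464 and 0.190. MIR20B stood at 0.237 and 0.313, and MIR363 at 0.0166 and 0.127. These are the libraries with the low TMM factors given above, and the part of library composition in these differences was not tested.

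Levels were compared between members per kilobase of hairpin, on the TMM-scaled CPM scale. In exosomes the order was MIR25 at 19040 ± 8959 (SD, n = 5), MIR92A2 at 15080 ± 6725, MIR106B at 2615 ± 1042, MIR93 at 1412 ± 697, MIR363 at 248 ± 355, MIR106A at 23.2 ± 8.4 and MIR20B at 22.4 ± 23.3 CPM per kb. MIR25 exceeded MIR92A2 in 4 of 5 exosome libraries, and only MIR92A2 and MIR106B were neighbours whose ranges did not overlap. In cells the order began with MIR92A2 at 29290 ± 14920 (SD, n = 3) and MIR25 at 12440 ± 2937 CPM per kb. MIR106B followed at 1176 ± 268, MIR363 at 757 ± 1060, MIR93 at 673 ± 454, MIR20B at 24.95 ± 26.96 and MIR106A at 15.7 ± 10.1 CPM per kb. In cells MIR92A2 exceeded MIR25 in 3 of 3 libraries with no overlap, and the ranges of MIR106B, MIR363 and MIR93 overlapped. MIR92A2 counts may hold miR-92a-3p reads of MIR92A1, so its place in both orders cannot be read as the level of this hairpin alone.

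The members together took 3.98% to 5.93% of miRNA reads in exosomes and 3.60% to 4.00% in cells. Within that sum the chromosome 7 members made up 50.4% to 70.9% in exosome libraries and 22.3% to 46.9% in cell libraries. Every exosome library was above every cell library in this share. It is given as a description, with no test and no like value over other features beside it. MIR92A2 made up 28.97% to 49.6% of the sum in exosomes and 48.2% to 77.5% in cells. Its reads of miR-92a-3p cannot be told from those of MIR92A1, so these shares do not divide the reads between chromosomes 7 and X. The other 3 chromosome X members never exceeded 4.83% together.

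**Figure D4:**
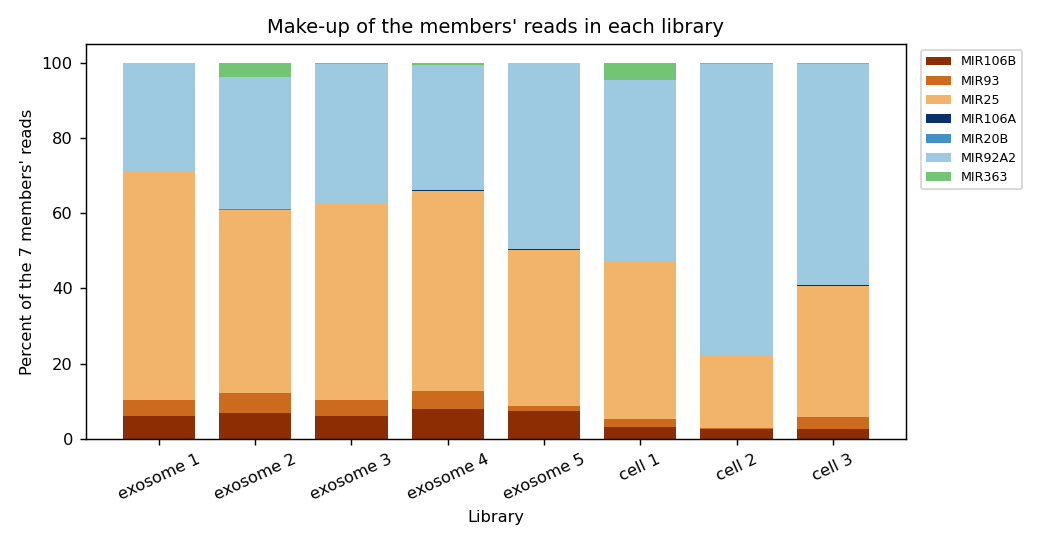
Stacked bars of the percent of the 7 members' reads that each member took in each library, from 0 to 100%. Reads of miR-92a-3p in MIR92A2 cannot be told from those of MIR92A1. The chromosome 7 members (browns and orange) reach 50.4% to 70.9% in the exosome libraries and 22.3% to 46.9% in the cell libraries; MIR363 (green) is visible in exosome 2 and cell 1, and MIR106A and MIR20B are too small to see.

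Ratios between members of the same library do not depend on the scaling of that library. Of 10 pairs chosen by locus and seed, none had an exact permutation p under 0.05 (two-sided, 5 against 3 libraries, smallest possible p 0.0357). The pair nearest to it was MIR25 over MIR92A2, both abundant features of the miR-92 family. Since MIR92A2 counts may hold miR-92a-3p reads of MIR92A1, the pair cannot be read as a contrast of the 2 clusters. That ratio of counts was 2.09, 1.39, 1.41, 1.60 and 0.838 in exosomes and 0.863, 0.252 and 0.595 in cells. Exosome 5 fell just below cell 1, and the other exosome libraries lay above all 3 cell libraries. The mean log2 ratio was 1.48 higher in exosomes, with exact permutation p = 0.0714, adjusted p = 0.357 over the 10 pairs. How the two-sided p is defined decides on which side of 0.05 the unadjusted value falls, as the closing section states.

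Within the chromosome 7 cluster, MIR25 over MIR106B was 5.55 to 9.72 in exosomes and 7.72 to 13.0 in cells. The log2 difference was -0.56, with exact permutation p = 0.107 and adjusted p = 0.357. MIR106B over MIR93 was 1.29 to 1.74 in exosomes 1 to 4, 5.93 in exosome 5, 1.57 in cell 1, 8.84 in cell 2 and 0.871 in cell 3. Exosome 5 and cell 2 therefore stood apart from the rest in that ratio. The remaining 7 pairs had exact permutation p-values of 0.143 to 0.679 before adjustment.

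**Figure D5:**
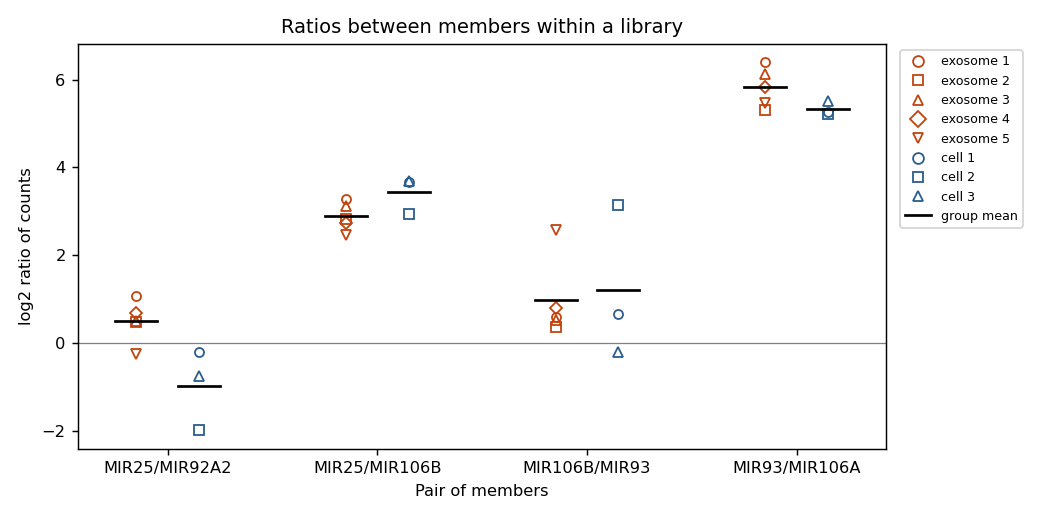
log2 ratio of counts between 2 members of the same library for 4 of the 10 pairs, with 1 marker per library and a bar at the group mean. MIR25 over MIR92A2 is 1.48 higher on average in exosomes, with exosome 5 at the level of cell 1, and MIR106B over MIR93 is high in exosome 5 and cell 2.

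The miRNA features with patterns most like each abundant member were taken from the 332 others tested, by the same RMS measure over 8 libraries. The depth and scaling of a library are common to all its features. For MIR106B they were MIR378I at 0.27, MIR766 at 0.35 and MIR361 at 0.39. For MIR25 they were MIR1287 at 0.28, MIR378I at 0.29 and MIR361 at 0.30. For MIR93 they were MIR15B at 0.38, MIR106A at 0.41 and MIR103A2 at 0.43. For MIR92A2 they were MIR3615 at 0.31, MIR2110 at 0.33 and MIR760 at 0.33. For MIR363 the nearest were MIR4424 at 1.55, MIR590 at 1.61 and MIR20B at 1.65, against a median of 2.94 to all features compared. Members of the same cluster were thus not always nearest by this measure. MIR93 was nearer to MIR106A of chromosome X than to MIR25 at 0.91 or MIR106B at 1.08. MIR106A averaged only 62.6 counts in exosomes and 55 in cells, and both MIR93 and MIR106A were lowest in exosome 5 and cell 2.

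Of 13 further miRNAs listed as relatives by seed or cluster, 7 had a row and 3 were tested. Those without a row of their own were the founding hairpins MIR17, MIR18A, MIR19A, MIR20A, MIR19B1 and MIR92A1. MIR32, whose miRNA carries the miR-92 seed, was lower in exosomes, with 13.2, 9.98, 17.8, 15.5 and 8.39 CPM against 81.7, 8.82 and 48.5 CPM in cells. Its log2 fold change was -1.84 ± 0.61 (SE), with edgeR's adjusted p = 0.0230, although cell 2 lay within the exosome range. That call was lost in 5 of the 8 fits that left out a library, with edgeR's adjusted p of 0.0514, 0.0547 and 0.0730 without exosomes 1, 3 and 4, 0.141 without cell 1 and 0.101 without cell 3. With miRNA features fitted alone, edgeR's adjusted p for MIR32 was 0.0991. It was 0.0596 with total count scaling and 0.0580 with a filter of 50 counts in 3 libraries. For exosomes 1 to 3 against cells 1 to 3, edgeR's adjusted p was 0.242 with a replicate block and 0.0818 without. In limma-voom the adjusted p was 0.101. The MIR32 call thus held in 10 of 21 alternatives and was lost in 11, with a negative fold change throughout. MIR92B had a log2 fold change of -0.46 ± 0.58 (SE) and MIR19B2, a hairpin of the chromosome X cluster, of -0.39 ± 0.57 (SE), and neither was called by edgeR, with adjusted p = 0.553 and 0.619. MIR18B, from the same cluster, had 0 to 13 counts and was not tested. MIR367, MIR519D and MIR526B had 0 counts in all 8 libraries.

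Of the marker miRNAs of other tissues, 5 were called higher in exosomes by edgeR and 6 tested ones were not. In the same fit, 41 of 333 miRNA features and 244 of 1178 features of all kinds were called higher. MIR122, a liver miRNA, had 19.9 to 114 CPM in exosomes and 0.424 to 2.00 CPM in cells, a log2 fold change of 5.47 with edgeR's adjusted p = 0.000193. The stromal markers MIR143 and MIR199B had log2 fold changes of 3.89 and 2.54, with edgeR's adjusted p = 0.00128 and 0.0256. The endothelial and platelet miRNA MIR126 had 2.90, with edgeR's adjusted p = 0.00538, and MIR203, a skin miRNA, had 3.83, with edgeR's adjusted p = 0.0170. The 6 not called were MIR192, MIR486, MIR223, MIR200C, MIR199A1 and MIR199A2, with edgeR's adjusted p from 0.0834 to 0.912, and the muscle markers MIR1-1 and MIR206 were not tested.

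Summed levels of these lists mix called and uncalled miRNAs. The liver markers, 2 of 2 with a row, were at 59.7 to 149 CPM in exosomes and 10.8 to 45.3 CPM in cells. The stromal markers, 4 of 5, summed to 4.94 to 31.8 and 1.06 to 1.67 CPM, and the myeloid and platelet markers, 2 of 2, to 10.8 to 58.8 and 1.26 to 10.7 CPM. MIR486, the only red cell marker of 5 with a row, overlapped at 22.4 to 88.3 and 9.46 to 51.7 CPM. The epithelial markers, 2 of 4, summed to 4.18 to 11.95 and 2.79 to 9.52 CPM, most of it MIR200C. MIR203 alone was at 0.285 to 4.404 and 0 to 0.165 CPM. The muscle markers, 2 of 3, summed to 0.0587 to 1.68 and 0 to 0.0578 CPM. The part of these markers in the values of MIR106B and MIR25 was not tested.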

How the data were processed

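Small RNA libraries of MEC-1 exosomes (n = 5) and cells (n = 3) were read from tables of raw counts per feature that the authors deposited, per the file headers. The tools in the submitters' processing notes are DESeq2 1.8.2, featureCounts, STAR and cutadapt 1.1, with the build GRCh37 (hg19, hs37d5); settings for strand and multiple matches are not stated there. Counts were fitted with edgeR 4.0.16 in R 4.3.3 (TMM scaling, filterByExpr with a minimum count of 10, quasi-likelihood test, Benjamini-Hochberg over 1178 features), and the steps were tested on simulated data. Ratios added 0.5 to each count and were tested by exact permutation over the 56 splits. Alternatives were other scalings, filters and feature sets, DESeq2 1.42.0, limma 3.58.1, a replicate block and leaving out libraries. The text names all 7 members, MIR17HG, the tested relatives, marker miRNAs as values and, for members averaging 100 counts in a group, the 3 miRNA features most like each. The members and lists were chosen with earlier results of these data known. Groups of features with nearly equal counts held none of the members. No 2 libraries of a group agreed within sampling noise.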

Additional observations from a re-analysis of the deposited data

Results flagged for a closer look

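Of 18 sets of 5 exosome values examined, 2 held a library whose gap to its nearest neighbour, divided by the whole range, was above 0.71. That is Dixon's 95% value, which chance passes about 1 in 20 times for normally distributed values in independent sets. The sets came from the same 5 libraries, and MIR363 was examined in unlogged CPM over a 308-fold range. The rate of 1 in 20 therefore need not hold here. MIR363 was at 64.6 CPM in exosome 2, with a gap of 0.714 of the range. The log2 ratio of MIR106B to MIR93 was 2.57 in exosome 5, with a gap of 0.803 of the range.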

How the results depend on the processing

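MIR106B was the 1 member called higher under upper-quartile scaling (log2 fold change 1.495) and without rRNA features (1.49). It was also the 1 called higher with a filter of 50 counts in 3 libraries (1.59) and in DESeq2 (1.16). Among all features tested, these settings called 520 of 1178, 526 of 1186, 428 of 863 and 563 of 1178 in either direction. Leaving out single libraries gave 0 to 1 members called higher, the 1 being MIR106B at 1.66 without exosome 3. It gave 0 to 1 called lower, the 1 being MIR363 at -2.98 without exosome 2. Among all features tested, those fits called 478 of 1130 and 477 of 1143 in either direction. The adjusted p of MIR106B ran from 0.0260 to 0.360 over its 21 alternatives. MIR20B changed sign under upper-quartile scaling (0.089), with miRNA features alone (0.42), without rRNA features (0.14), with no filter (0.13), with the stricter filter (0.22), in exosomes 1 to 3 against cells 1 to 3 with no replicate block (0.012), and on leaving out single libraries, where it ranged from -0.86 to 1.21. On leaving out single libraries MIR363 ranged from -2.98 to 0.73, MIR93 from 0.53 to 1.77 and MIR106A from 0.02 to 1.15. Over all features the log2 fold changes had a median of -0.09 with TMM, 0.19 with total counts and 0.25 with the upper quartile; relative to it MIR106B was at 1.24, 1.17 and 1.24.

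No exact p was under 0.05 in any of the 10 pairs with the prior count raised to 10 or without single libraries (0 to 0 pairs), but with 7 libraries the smallest possible p is 0.0571 or 0.0952, so those say nothing about stability. The two-sided p printed in the report is 2 times the smaller one-sided share of splits. Counting splits with an absolute difference at least as large instead gave 1 pair under 0.05, MIR25 over MIR92A2 at exact permutation p = 0.0357, adjusted p = 0.312. Both definitions were computed, and the choice between them was settled after their values were seen; no pair passed after adjustment under either. The exosome-minus-cell difference of the log2 ratio MIR363 over MIR92A2, -1.25 with all libraries, changed sign without exosome 5 (0.094) or cell 1 (0.21) and ranged from -2.33 to 0.21 without single libraries, and that of MIR106B over MIR93, -0.23 with all libraries, changed sign without cell 2 (0.74; range without single libraries -0.93 to 0.74) or without exosome 5 and cell 2 together (0.34), a setting added after seeing the data. The causes were not tested.

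The design text pairs 3 exosome with 3 cell samples without naming them. Same-numbered libraries had correlations of deviations of 0.107, -0.01 and 0.03, and exosomes 2 and 3 correlated best with another number, so the numbers were not taken to pair the samples. With the replicate block over exosomes 1 to 3 and cells 1 to 3, 0 members were called, against 333 of 1105 features tested. In that fit MIR106B was at 0.83 and MIR92A2 at -1.18. Depth limits MIR20B, MIR106A and, in exosome 5, MIR363.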
